A study of Mus musculus with 18 samples.

Results

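The genes described here are the matrix metalloproteinases (Mmp), the ADAM and ADAMTS metalloproteinases, the ADAMTS-like proteins (Adamtsl) and the tissue inhibitors of metalloproteinases (Timp) of the mouse. They were chosen by symbol, as every gene of these names in the probe annotation of the array, which gave 78 genes of 19057 with a single symbol. The 78 comprised 15 secreted Mmps, 6 membrane-type Mmps, 4 Timps, 8 Adams whose protein carries the zinc-binding motif of an active protease, 24 Adams that lack it or are known from the testis, 17 Adamts and 4 Adamtsl genes. Of these, 70 lay above the background level on at least 1 array and were tested, as were 16324 genes in all.

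RNA came from freshly sorted mammary cells of female FVB/N mice and was hybridized to Illumina mouse whole-genome arrays, 1 array per sample. The cells had been depleted of blood and endothelial cells and split by flow cytometry into a stromal subset (CD29lo CD24-, 3 arrays), a MaSC-enriched subset that holds the mammary stem cells among basal cells (CD29hi CD24+ CD61+, 5 arrays), a luminal progenitor subset (CD29lo CD24+ CD61+, 5 arrays) and a mature luminal subset (CD29lo CD24+ CD61-, 5 arrays). The sources give no transgene or treatment for any of the mice, and the age of the mice used for the arrays is not given in the sources used here. The replicate is a pool of several mice: pools 1, 2 and 3 gave all 4 subsets and were hybridized in batch 1, and pools 4 and 5 gave the 3 epithelial subsets and were hybridized in batch 2, so values below are listed in the order of the pools.

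Mmps, Adams and Adamts enzymes hold a zinc ion in the active site. Secreted Mmps cut collagens, proteoglycans and other matrix proteins, membrane-type Mmps do so at the cell surface and activate other Mmps, and Timps bind and block the active site. Active Adams release growth factors and receptors from the cell surface, Adamts enzymes trim proteoglycans and process procollagen, and Adamtsl proteins share the carboxyl-terminal modules of Adamts enzymes but have no protease domain. In the mammary gland, remodeling of the matrix by these proteins accompanies branching of the ducts and involution after lactation.

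The subsets were checked against marker genes. All 7 fibroblast markers were higher in the stromal than in the MaSC-enriched and luminal progenitor subsets, and 6 of 7 were higher than in the mature luminal subset. For basal markers, 7 of 7 genes were called above each luminal subset in MaSC-enriched cells. All 6 luminal progenitor markers were lower in the MaSC-enriched than in the luminal progenitor subset, and 4 of 5 tested mature luminal markers were lower in luminal progenitors than in mature luminal cells. The mean of the 7 fibroblast markers was 14.16 to 14.37 on the log2 scale on the stromal arrays, 9.58 to 11.99 on the MaSC-enriched, 9.68 to 10.81 on the luminal progenitor and 7.19 to 9.30 on the mature luminal arrays. MaSC-enriched samples 3 and 4 stood apart from their group, with fibroblast means of 11.88 and 11.99 and endothelial means of 11.65 and 11.15, against 7.88 to 9.01 for endothelial markers on the other 3 arrays. Their luminal progenitor means were 11.83 and 11.40, against 9.18 to 9.61 on the other 3. Luminal progenitor samples 3 and 4 also stood apart, with endothelial means of 9.98 and 10.79, against 6.79 to 7.73 on the other 3, and basal means of 9.36 and 8.74, against 6.76 to 7.99. Mature luminal sample 4 had the highest luminal progenitor mean of its group (12.54) and the lowest mature luminal mean (10.38). Its basal and fibroblast means, 8.87 and 9.30, were the highest of that group. In sorted bulk samples, fewer cells of a type and less RNA per cell cannot be told apart.

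The promoters of a cluster of Mmp genes are shown because only 1 of these close neighbors, Mmp3, differed between subsets. Of the 10 neighboring Mmp genes of chromosome 9, in the order Mmp13, Mmp12, Mmp1b, Mmp3, Mmp1a, Mmp10, Mmp8, Mmp27, Mmp20 and Mmp7, 9 are on the array (all but Mmp27). Upstream sequences of 48 of the 78 genes were taken from RefSeq (GRCm38.p6). The windows below run from 130 bases before to 30 bases after the annotated transcript start, 5′ to 3′ on the plus strand, and capitals mark matches of TGANTCA, the letters that AP-1 factors bind, and of TATAAA, the TATA box, on either strand. They lie at chr9:7445692-7445851 (Mmp3), chr9:7464011-7464170 (Mmp1a), chr9:7502212-7502371 (Mmp10), chr9:7272384-7272543 (Mmp13), chr9:7691960-7692119 (Mmp7) and, for comparison, chr14:54431468-54431627 (Mmp14, which lies outside the cluster).
Mmp3: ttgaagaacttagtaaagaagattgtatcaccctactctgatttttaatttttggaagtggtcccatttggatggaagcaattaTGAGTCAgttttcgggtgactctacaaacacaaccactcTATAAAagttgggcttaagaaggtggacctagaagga
Mmp1a: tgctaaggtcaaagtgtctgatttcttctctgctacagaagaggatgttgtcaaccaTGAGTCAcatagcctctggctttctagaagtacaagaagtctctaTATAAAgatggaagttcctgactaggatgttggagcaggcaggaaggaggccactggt
Mmp10: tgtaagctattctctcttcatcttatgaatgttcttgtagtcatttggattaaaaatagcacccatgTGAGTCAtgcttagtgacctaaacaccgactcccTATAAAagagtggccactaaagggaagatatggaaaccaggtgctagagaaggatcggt
Mmp13: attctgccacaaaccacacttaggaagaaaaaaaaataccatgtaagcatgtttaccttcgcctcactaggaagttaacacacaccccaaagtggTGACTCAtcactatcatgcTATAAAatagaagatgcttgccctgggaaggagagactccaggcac
Mmp7: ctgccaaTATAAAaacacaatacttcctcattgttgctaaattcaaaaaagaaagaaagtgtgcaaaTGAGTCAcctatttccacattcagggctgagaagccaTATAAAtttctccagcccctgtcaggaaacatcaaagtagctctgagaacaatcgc
Mmp14: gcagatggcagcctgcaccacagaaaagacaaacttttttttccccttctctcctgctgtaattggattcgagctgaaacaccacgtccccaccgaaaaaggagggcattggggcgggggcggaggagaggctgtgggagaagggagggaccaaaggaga

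The 5 windows of the cluster share an AP-1 match followed by a TATA box, and the Mmp14 window has neither. Over windows of 250 bases before to 50 after the start, an AP-1 match on either strand was present in 8 of the 11 RefSeq promoters of the 9 cluster genes (72.7%) and in 7.81% of all 32851 promoters. A TATA box was present in 9 of the 11 (81.8%) and in 13.6% of all promoters. GGGCGG, the letters of an Sp1 box, was in 0 of the 11 cluster promoters, in 57.5% of the 40 promoters of the other genes described here and in 35.7% of all. CANNTG, the E-box, was in 9 of the 11 (81.8%) and in 72.3% of all, and the letters of these motifs were searched separately, so that matches may overlap. A match of letters is a description and does not show that a factor binds.

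Mmp3, stromelysin 1, which cuts proteoglycans and activates other Mmps, was the only one of the 9 cluster genes that differed between subsets. Its log2 intensity was 13.89, 13.68 and 14.31 on the stromal arrays, 8.32, 7.22, 10.84, 10.91 and 8.56 on the MaSC-enriched, 8.49, 7.73, 9.24, 9.57 and 8.07 on the luminal progenitor and 6.66, 6.71, 6.67, 8.05 and 6.04 on the mature luminal arrays. Every stromal array lay above every epithelial one, and the 3 epithelial subsets overlapped. Mmp3 was 149-fold higher in stromal than in mature luminal cells (log2 difference 7.22 ± 0.38 (SE), adjusted p = 3.1e-11) and 34.2-fold higher than in MaSC-enriched cells (5.09 ± 0.43, adjusted p = 1.8e-08), a fold that was 21.0 without MaSC-enriched replicate 2 and 54.8 without pools 3 and 4. It was also higher in MaSC-enriched than in mature luminal cells (2.12 ± 0.42, adjusted p = 0.00062; 2.79 without MaSC-enriched replicate 2) and in luminal progenitors than in mature luminal cells (1.79 ± 0.41, adjusted p = 0.002). The other 8 genes reached at most 7.89 on any array, a value of Mmp1a, an interstitial collagenase. Mmp1b, its near copy, was never above background, and Mmp10, Mmp20 and Mmp7 were above it on 1 array each. Mmp13, the collagenase of cartilage and bone, was above background on 2 of 3 stromal, 3 of 5 MaSC-enriched, 2 of 5 luminal progenitor and 3 of 5 mature luminal samples, with 6.37 as its highest value.

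**Figure D1:**
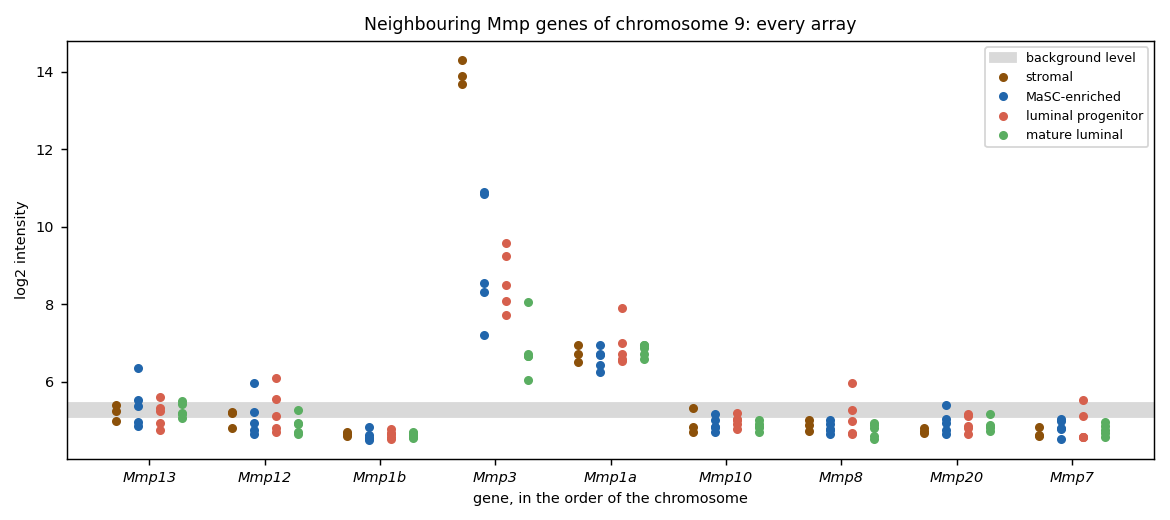
Log2 intensity (vertical axis) of the 9 measured Mmp genes of the chromosome 9 cluster, in chromosomal order, with 1 point per array and the grey band at the range of the background level (5.10 to 5.44). Mmp3 lies between 13.68 and 14.31 on the stromal arrays and between 6.04 and 10.91 on the epithelial arrays, and the other 8 genes stay at or below 7.89.

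Across the whole group, the calls pointed toward the stroma. A gene was called where the false discovery rate over all genes and 6 comparisons was below 0.05 and the fold-change above 1.5. Against the MaSC-enriched subset, 25 of 70 genes were higher in the stroma (35.7%, where 14.3% of all genes tested were) and 3 were lower (4.29%, where 16.1% of all genes were). Against luminal progenitors 32 were higher (background 16.5%) and 1, Adam8, was lower (background 19.8%). Against mature luminal cells 30 were higher (background 16.5%) and 2, Adam10 and Adam8, were lower (background 21.7%). The median log2 difference of the 70 genes was 0.16, 0.42 and 0.38 in these 3 comparisons, beside medians of -0.03, -0.04 and -0.06 over all genes. In total 23 of 70 (32.9%) were higher in the stroma than in all 3 epithelial subsets, where 9.92% of all genes were. Of the 23, Adamts14 had passed the background filter only through stromal arrays, and 22 remained without it. Adamts14 is also among the 25, 32 and 30 genes above and the 38 below. The shares over all genes were not cleared of genes that passed in this way, so the 22 have no like share beside them. Lower in the stroma than in all 3 were 0 of 70, where 9.69% of all genes were. The count of 0 comes from the limma test and was also 0 at an unadjusted p below 0.05. At least 1 of the 6 comparisons was called for 38 of the 70 genes (54.3%, where 52.6% of all genes had a call).

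**Figure D2:**
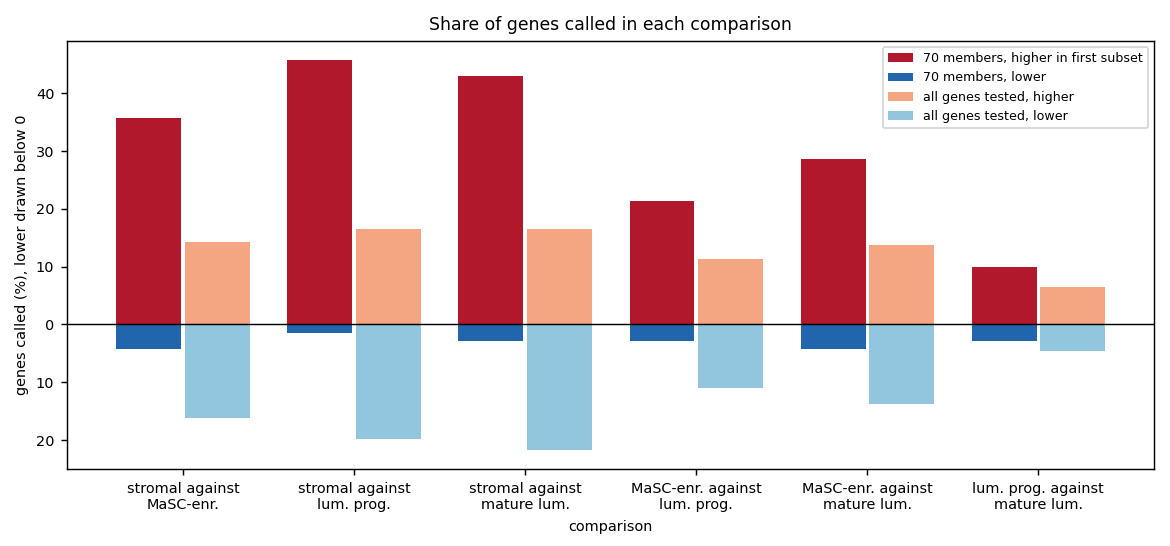
Percentage of genes called higher (upward bars) or lower (downward bars) in the first subset of each comparison, for the 70 genes of the group (left bars) and all 16324 genes tested (right bars). Stromal comparisons call 35.7% to 45.7% of the group higher, where 14.3% to 16.5% of all genes are, and 1.43% to 4.29% lower. The genes called higher include Adamts14, which passed the background filter only through stromal arrays.

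Among the secreted Mmps, 4 of the 14 tested were higher in the stroma than in every epithelial subset, where 9.92% of all genes were: Mmp3 and the 3 genes that follow. Mmp2, the gelatinase that cleaves collagen of basement membranes, had values of 14.27, 14.89 and 14.87 in the stroma, 13.26, 12.15, 13.01, 13.99 and 13.00 in MaSC-enriched cells, 10.39, 10.23, 11.22, 10.54 and 9.70 in luminal progenitors and 8.75, 8.44, 8.59, 10.44 and 7.39 in mature luminal cells. Its order was stroma, MaSC-enriched, luminal progenitor, mature luminal, and only the luminal pair overlapped. The steps were 1.71 ± 0.33 (adjusted p = 0.0005), 2.46 ± 0.35 (adjusted p = 1.8e-05) and 1.89 ± 0.32 on the log2 scale (adjusted p = 0.00012), so that Mmp2 was 20.4-fold higher in MaSC-enriched than in mature luminal cells. Mmp11, stromelysin 3, which is processed inside the cell by furin, read 10.84, 9.26 and 11.43 in the stroma, 7.0, 6.76, 7.66, 8.38 and 6.57 in MaSC-enriched cells, 5.47, 5.44, 6.62, 6.39 and 4.96 in luminal progenitors and 6.65, 5.84, 6.12, 6.54 and 5.71 in mature luminal cells. The stromal arrays were again all above the others. The difference between stroma and MaSC-enriched cells was 3.10 ± 0.38 (adjusted p = 2.9e-06), or 3.86 without stromal replicate 2. Mmp11 was higher in MaSC-enriched cells than in luminal progenitors by 1.44 ± 0.40 (adjusted p = 0.0092), a call that ended without luminal progenitor replicate 1 (1.14, adjusted p = 0.072) and within batch 1 (1.22, adjusted p = 0.12).

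Mmp19, which cuts basement membrane proteins, was nearer to background, at 6.69, 6.10 and 6.38 in the stroma, 4.94, 5.74, 5.10, 4.98 and 5.43 in MaSC-enriched cells, 6.12, 5.24, 5.32, 4.84 and 4.93 in luminal progenitors and 6.15, 5.46, 6.11, 4.89 and 5.25 in mature luminal cells. The stromal arrays overlapped both luminal subsets. Stroma exceeded MaSC-enriched cells by 1.04 ± 0.25 (adjusted p = 0.0029) and mature luminal cells by 0.60 ± 0.22 (adjusted p = 0.045). The call against mature luminal cells was lost in 12 of the 18 fits that left out 1 array, with differences of 0.51 to 0.73: without any stromal replicate, MaSC-enriched 3, 4 or 5, luminal progenitor 2, 3 or 4, or mature luminal 2, 4 or 5. It was also lost with the mouse pool as a fixed block (0.52, adjusted p = 0.13). The call for Mmp19 against luminal progenitors (0.83 ± 0.24, adjusted p = 0.011) ended without stromal replicate 1 (0.74, adjusted p = 0.061) or luminal progenitor replicate 3 (0.67, adjusted p = 0.064), and without pools 3 and 4 (0.59, adjusted p = 0.18). Mmp28, epilysin, known from skin and lung epithelium, gave 6.32, 6.38 and 6.49 in the stroma, 6.19, 5.48, 5.96, 6.80 and 6.96 in MaSC-enriched cells, 5.90, 6.04, 5.59, 6.27 and 6.03 in luminal progenitors and 6.50, 6.49, 6.56, 7.23 and 7.05 in mature luminal cells. Luminal progenitors were lower than mature luminal cells in 5 of 5 pools (log2 difference -0.76 ± 0.17, adjusted p = 0.0022), and the luminal groups did not overlap. Mmp9, the other gelatinase, was above background on all 18 arrays (5.43 to 7.59) and was not called in any comparison. In all, 9 of the 14 tested secreted Mmps had no call: Mmp10, Mmp12, Mmp13, Mmp1a, Mmp20, Mmp21, Mmp7, Mmp8 and Mmp9.

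Membrane-type Mmps fell into several patterns. Mmp14, the membrane-type collagenase that activates pro-Mmp2 at the cell surface, had values of 14.80, 14.78 and 14.66 in the stroma, 13.20, 12.80, 13.13, 13.12 and 13.34 in MaSC-enriched cells, 12.66, 12.36, 12.91, 12.90 and 12.54 in luminal progenitors and 13.87, 13.71, 13.29, 12.70 and 13.52 in mature luminal cells. It was thus high on every array and highest on the stromal ones. Stroma exceeded mature luminal cells by 1.23 ± 0.15 (adjusted p = 2.1e-06), and luminal progenitors were lower than mature luminal cells by -0.89 ± 0.16 (adjusted p = 0.00021), in 4 of 5 pools. A second Mmp14 probe, with group means of 5.06 to 5.20, shared no call, and with the mean of both probes these differences were 0.55 and -0.51, under the fold-change of 1.5.

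Mmp23, a membrane-anchored Mmp without the usual activation switch, read 12.08, 12.10 and 12.39 in the stroma, 8.70, 8.62, 9.07, 9.64 and 9.43 in MaSC-enriched cells, 6.58, 5.94, 7.54, 7.61 and 6.27 in luminal progenitors and 5.25, 5.75, 5.67, 7.16 and 5.11 in mature luminal cells. The order was that of Mmp2, with differences of 3.22 ± 0.27 (stroma minus MaSC-enriched, adjusted p = 1.8e-08), 2.27 ± 0.28 (MaSC-enriched minus luminal progenitor, adjusted p = 3.4e-06) and 1.05 ± 0.26 (luminal progenitor minus mature luminal, adjusted p = 0.0035). Mmp17, held at the membrane by a lipid anchor, had 9.81, 10.29 and 10.58 in the stroma, 9.80, 9.54, 9.41, 8.95 and 10.27 in MaSC-enriched cells, 7.21, 6.87, 7.88, 8.39 and 7.01 in luminal progenitors and 6.42, 6.99, 6.82, 6.74 and 6.89 in mature luminal cells. Stroma and MaSC-enriched cells overlapped (0.57 ± 0.23, adjusted p = 0.072), and both were above every luminal array. MaSC-enriched cells exceeded luminal progenitors by 2.29 ± 0.24 (adjusted p = 3.6e-07) and mature luminal cells by 2.85 ± 0.23 (adjusted p = 9.4e-09).

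Mmp16, another membrane-type Mmp able to activate pro-Mmp2, ran the other way. Values were 8.04, 7.87 and 8.87 in the stroma, 5.18, 4.95, 7.02, 5.12 and 4.85 in MaSC-enriched cells, 8.50, 7.88, 7.74, 6.16 and 8.45 in luminal progenitors and 7.31, 8.56, 8.03, 7.79 and 7.15 in mature luminal cells. Apart from replicate 3, the MaSC-enriched arrays were near background. MaSC-enriched cells were lower than luminal progenitors by -2.64 ± 0.38 (adjusted p = 1.8e-05, or -3.33 without pools 3 and 4) and than mature luminal cells by -2.45 ± 0.36 (adjusted p = 2.3e-05), and stroma was higher than MaSC-enriched cells by 2.68 ± 0.36 (adjusted p = 8.6e-06). Mmp16 was the 1 gene of 70 that was lowest in MaSC-enriched cells against all 3 other subsets, where 1.71% of all genes were. Mmp24, another membrane-type Mmp, was above background on every array (9.52 to 10.34) and had no call, and Mmp25, an Mmp of leukocytes, was never above background.

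The inhibitors were all present, with different orders. Timp1, which also blocks Adam10, read 12.42, 13.03 and 13.06 in the stroma, 10.58, 10.05, 10.90, 10.41 and 11.43 in MaSC-enriched cells, 10.30, 10.33, 10.46, 11.05 and 11.16 in luminal progenitors and 10.19, 10.04, 9.81, 10.31 and 11.02 in mature luminal cells. Only the stroma stood apart, 4.86-fold above MaSC-enriched cells (log2 difference 2.28 ± 0.22, adjusted p = 1.2e-07) and 6.53-fold above mature luminal cells (2.71 ± 0.19, adjusted p = 2.4e-09). Timp2, which blocks Mmps and also serves as the bridge by which Mmp14 binds pro-Mmp2, had 14.81, 14.91 and 14.81 in the stroma, 12.92, 12.47, 13.16, 13.62 and 12.87 in MaSC-enriched cells, 12.53, 12.50, 12.62, 12.20 and 12.55 in luminal progenitors and 12.21, 11.81, 11.78, 12.36 and 12.06 in mature luminal cells. Stroma exceeded MaSC-enriched cells by 1.96 ± 0.15 (adjusted p = 4.5e-09) and mature luminal cells by 2.89 ± 0.13 (adjusted p = 4.6e-12). MaSC-enriched cells were above mature luminal cells by 0.93 ± 0.15 (adjusted p = 5.5e-05) in 5 of 5 pools, without overlap. Mmp14, Mmp2 and Timp2, the parts of 1 activating complex, were thus each higher in the stroma than in all 3 epithelial subsets.

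Timp3, the inhibitor that stays bound to the matrix and also blocks Adam17, was shared by stroma and MaSC-enriched cells. The stromal values were 13.82, 13.58 and 13.75, the MaSC-enriched 13.12, 12.53, 13.32, 13.33 and 13.15, the luminal progenitor 9.17, 9.46, 11.29, 12.13 and 8.38 and the mature luminal 9.19, 8.65, 8.64, 9.90 and 8.97. Stroma and MaSC-enriched values did not overlap, but the fitted difference of 0.71 ± 0.37 did not pass the test (adjusted p = 0.17). MaSC-enriched cells were 9.33-fold above luminal progenitors (3.22 ± 0.39, adjusted p = 2.1e-06) and 17-fold above mature luminal cells (4.09 ± 0.36, adjusted p = 4.6e-08), in 5 of 5 pools each. Luminal progenitor samples 3 and 4, which had the high endothelial and basal means, were the highest of their group, and without pools 3 and 4 MaSC-enriched cells were 14.3-fold above luminal progenitors. Timp4, the inhibitor with the narrowest tissue range, had 5.82, 6.40 and 5.51 in the stroma, 6.60, 6.10, 9.17, 8.51 and 7.20 in MaSC-enriched cells, 5.39, 5.16, 7.76, 6.73 and 4.83 in luminal progenitors and 5.06, 5.13, 5.47, 6.20 and 5.12 in mature luminal cells. Only MaSC-enriched against mature luminal cells was called (1.99 ± 0.48, adjusted p = 0.0031). Its highest arrays were MaSC-enriched 3 and 4, those with the high fibroblast and endothelial means, and luminal progenitors 3 and 4 were the highest of their group. The part of other cells in this was not tested. Without pools 3 and 4 the Timp4 difference was 1.46 (adjusted p = 0.00094), within batch 1 it was 1.64 (adjusted p = 0.073) and within batch 2 it was 2.19 (adjusted p = 0.18).

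**Figure D3:**
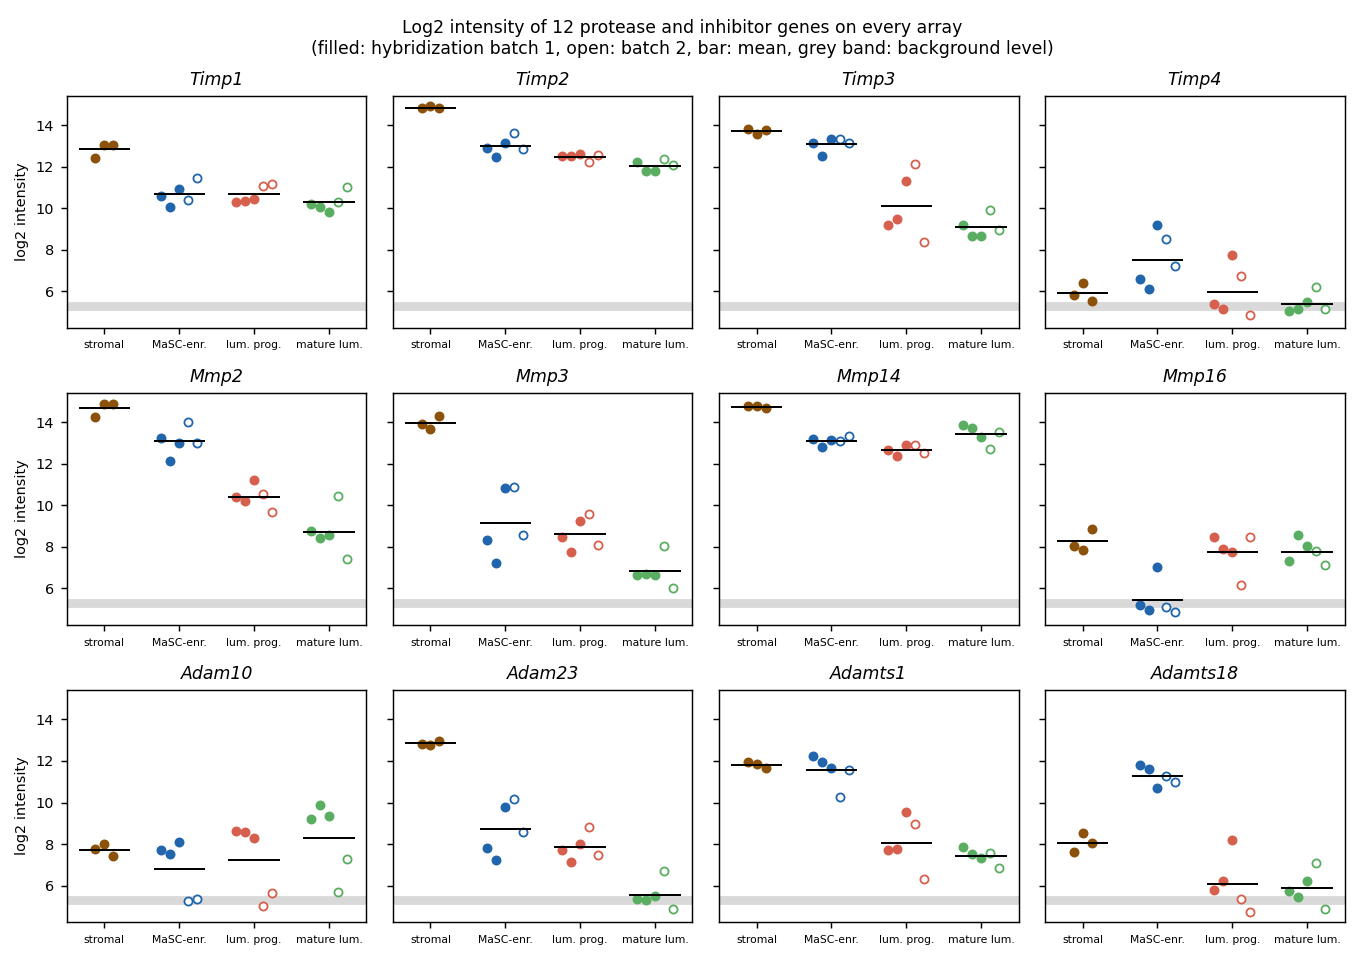
Log2 intensity (vertical axis) of 12 genes on each of the 18 arrays, by subset, with filled points for hybridization batch 1, open points for batch 2, a bar at the group mean and a grey band at the background level. Timp3 and Adamts1 are high in the stromal and MaSC-enriched subsets, Adamts18 lies between 10.68 and 11.79 in the MaSC-enriched subset, and the open Adam10 points lie below the filled ones of the same subset.

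Of the 8 Adams with the zinc-binding motif, 7 were called in at least 1 comparison, beside 52.6% of all genes. Adam17, the sheddase of tumor necrosis factor and of several epidermal growth factor receptor ligands, read 11.22, 11.21 and 11.38 in the stroma, 9.43, 9.68, 10.08, 10.49 and 9.58 in MaSC-enriched cells, 9.91, 9.80, 10.04, 10.74 and 9.94 in luminal progenitors and 10.28, 10.18, 10.28, 10.15 and 10.41 in mature luminal cells. Stroma was highest (1.5 ± 0.13 above MaSC-enriched cells, adjusted p = 3.5e-08), and no epithelial pair passed both thresholds. Adam12, an Adam of mesenchymal cells that can release Hbegf, had 9.88, 10.36 and 10.59 in the stroma, 6.67, 6.08, 6.65, 5.87 and 7.01 in MaSC-enriched cells, 4.95, 4.98, 5.62, 4.65 and 5.07 in luminal progenitors and 4.67, 4.69, 4.73, 4.94 and 4.81 in mature luminal cells. On every mature luminal array it was below background, so that stromal cells were at least 34.8-fold higher, a bound set against the background level of those arrays (adjusted p = 3.4e-14). MaSC-enriched cells were at least 2.47-fold higher than mature luminal cells by the same bound (adjusted p = 4.3e-07) and exceeded luminal progenitors by 1.33 ± 0.19 (adjusted p = 2.2e-05). A second Adam12 probe stayed at group means of 5.07 to 5.13 and shared no call.

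Adam33, linked by genetics to asthma in humans, had 8.49, 8.65 and 9.19 in the stroma, 5.58, 5.53, 6.14, 5.93 and 5.54 in MaSC-enriched cells, 5.45, 5.36, 5.58, 5.14 and 5.65 in luminal progenitors and 4.98, 5.82, 5.49, 4.79 and 4.82 in mature luminal cells. The stroma stood clear of all epithelial arrays (2.97 ± 0.19 above MaSC-enriched cells, adjusted p = 4.1e-10), and no epithelial pair was called. For Adam15, an Adam with an integrin-binding sequence, the probes disagreed. Its brightest probe read 10.92, 10.88 and 11.13 in the stroma, 9.85, 9.96, 11.43, 11.31 and 10.02 in MaSC-enriched cells, 9.20, 9.40, 10.31, 10.87 and 9.57 in luminal progenitors and 9.83, 9.74, 10.14, 9.94 and 10.09 in mature luminal cells. By this probe stroma was higher than mature luminal cells (1.06 ± 0.20, adjusted p = 0.00036) and MaSC-enriched cells were higher than luminal progenitors (0.73 ± 0.24, adjusted p = 0.025). A pair of dimmer Adam15 probes gave stroma minus mature luminal differences of -0.87 and -1.31, both called, and the mean over the kept probes turned the sign of both comparisons. The MaSC-enriched call by the brightest probe was also lost without MaSC-enriched replicate 3 (0.51) or 4 (0.57), or luminal progenitor replicate 1 (0.49) or 5 (0.68).

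Adam10, the sheddase of Notch receptors and E-cadherin, ran against the stroma but split by hybridization batch. Values were 7.74, 7.98 and 7.43 in the stroma, 7.70, 7.54, 8.11, 5.24 and 5.33 in MaSC-enriched cells, 8.62, 8.59, 8.30, 5.00 and 5.64 in luminal progenitors and 9.19, 9.90, 9.37, 5.67 and 7.28 in mature luminal cells. In each epithelial subset both arrays of batch 2 were below all 3 of batch 1. Within batch 1, mature luminal arrays (9.19 to 9.90) lay above luminal progenitor (8.30 to 8.62), MaSC-enriched (7.54 to 8.11) and stromal arrays (7.43 to 7.98). In the fit of all arrays, MaSC-enriched cells were below mature luminal cells by -1.76 ± 0.52 (adjusted p = 0.013), in 5 of 5 pools, and stroma was below mature luminal cells by -1.33 ± 0.46 (adjusted p = 0.036). The call for stroma was lost in 6 of the 18 fits that left out 1 array, those without any stromal replicate (-1.25 to -1.55) or without mature luminal replicate 1 (-1.26), 2 (-0.86) or 3 (-1.12), and the MaSC-enriched call without mature luminal replicate 2 (-1.31, adjusted p = 0.093).

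Adam9, a widely expressed Adam, was higher in the stroma (11.22 to 11.89) than in MaSC-enriched cells (9.25 to 10.96, difference 1.25 ± 0.28, adjusted p = 0.002). Like Adam10 it split by batch, with both batch 2 arrays of each epithelial subset below those of batch 1. The MaSC-enriched values were 10.96, 10.41 and 10.54 in batch 1 and 9.25 and 9.83 in batch 2, while stroma was measured in batch 1 only. The Adam9 call against luminal progenitors (0.95 ± 0.27, adjusted p = 0.011) ended without stromal replicate 1 (0.77, adjusted p = 0.098) or 2 (0.74, adjusted p = 0.12). Adam8, known from leukocytes, was low everywhere, with 5.09 to 5.75 in the stroma, 5.02 to 6.31 in MaSC-enriched cells, 5.86 to 7.57 in luminal progenitors and 5.64 to 6.88 in mature luminal cells. Stroma was lower than mature luminal cells (-0.97 ± 0.22, adjusted p = 0.0016), a call that ended without array quality weights (-0.80, adjusted p = 0.083). Stroma was also lower than luminal progenitors (-0.80 ± 0.23, adjusted p = 0.012), but not without stromal replicate 1 (-0.64), stromal replicate 2 (-0.64) or luminal progenitor replicate 1 (-0.62). The Adam8 difference between MaSC-enriched and mature luminal cells (-0.81 ± 0.24, adjusted p = 0.015) lost its call without MaSC-enriched replicate 1 (-0.68) or 2 (-0.62), mature luminal replicate 2 (-0.57) or 3 (-0.72), or pools 3 and 4 (-0.79). Adam28 reached at most 6.11 and had no call.

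Adams that lack the motif or are known from the testis were mostly at background. Adam23, which acts as a cell adhesion protein and is best known from the brain, was the exception and had the largest difference of all 70 genes between stroma and mature luminal cells, 176-fold (log2 difference 7.46 ± 0.29, adjusted p = 6.9e-13). It read 12.83, 12.79 and 12.95 in the stroma, 7.81, 7.24, 9.78, 10.17 and 8.56 in MaSC-enriched cells, 7.73, 7.16, 8.02, 8.82 and 7.47 in luminal progenitors and 5.35, 5.30, 5.52, 6.72 and 4.89 in mature luminal cells. Luminal progenitors exceeded mature luminal cells without overlap (2.26 ± 0.31, adjusted p = 1.3e-05). A second Adam23 probe, with group means of 4.98 to 5.26, shared no call. Adam22, a synaptic adhesion partner of Lgi1, had 6.06, 6.07 and 6.39 in the stroma, 5.09, 5.54, 5.51, 5.42 and 5.73 in MaSC-enriched cells, 5.12, 5.63, 5.48, 5.81 and 4.95 in luminal progenitors and 4.96, 5.09, 5.22, 5.06 and 5.38 in mature luminal cells. The stroma was above all other arrays, by 0.71 ± 0.13 over MaSC-enriched cells (adjusted p = 0.00034), and a second kept probe shared no call. With the mean of both Adam22 probes the difference was 0.52, under the fold-change of 1.5. The other 17 tested genes of this kind had no call and at most 6.76 on any array, and 5, Adam18, Adam21, Adam25, Adam26b and Adam7, were never above background.

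**Figure D4:**
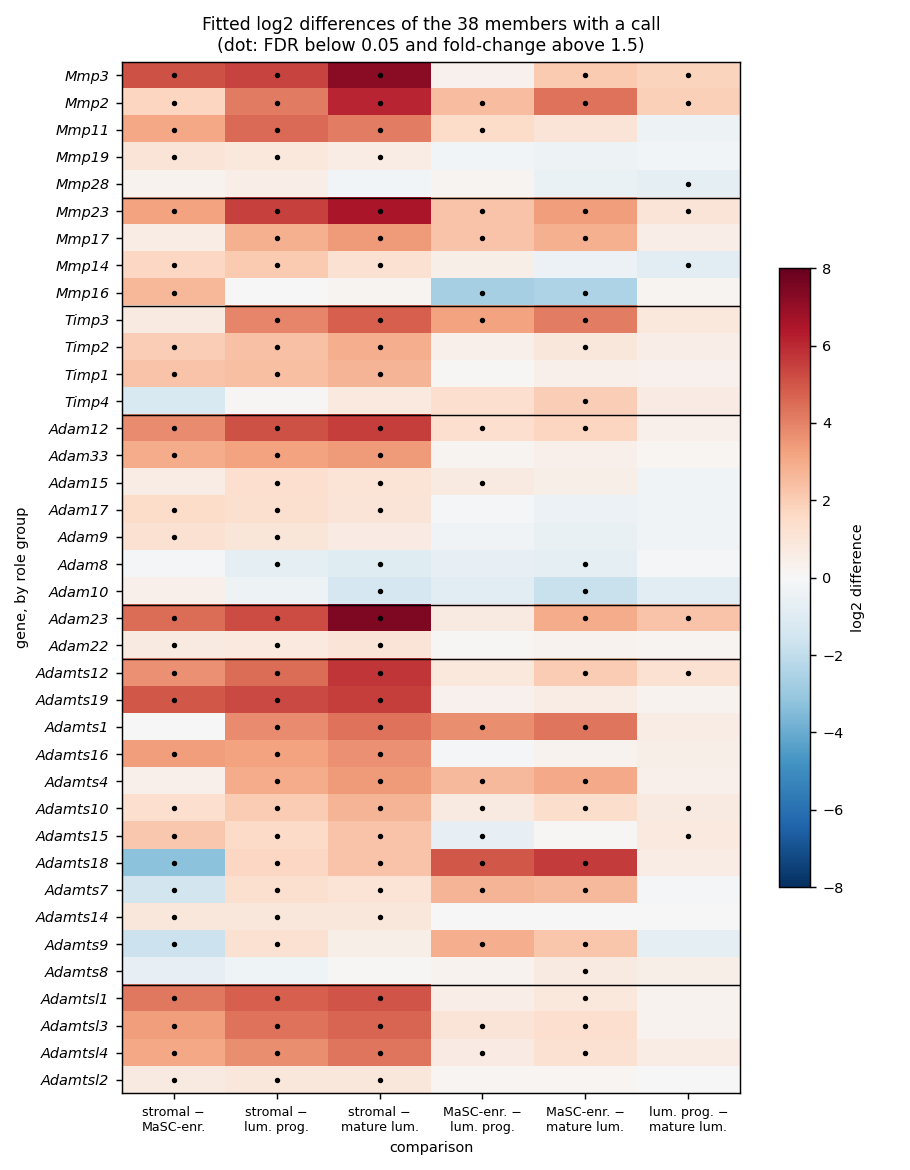
Fitted log2 differences (color) of the 38 genes with a call in at least 1 comparison, in rows by role and in columns by comparison, with a dot where the call was made. The first 3 columns are mostly positive (25, 32 and 30 genes called higher in the stroma), and the deepest negative cells are Adamts18 in stroma minus MaSC-enriched (-3.30) and Mmp16 in MaSC-enriched minus luminal progenitor (-2.64). Adamts14, which passed the background filter only through stromal arrays, is among the genes shown.

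Adamts genes divided between stroma and MaSC-enriched cells. Adamts12, which cuts the cartilage protein Comp, had 13.07, 13.26 and 13.71 in the stroma, 8.81, 8.73, 10.71, 11.46 and 10.58 in MaSC-enriched cells, 8.57, 8.55, 9.33, 9.66 and 9.01 in luminal progenitors and 7.49, 7.52, 7.55, 9.22 and 7.65 in mature luminal cells. Stroma was above all epithelial arrays, by 3.64 ± 0.33 over MaSC-enriched cells (adjusted p = 5.1e-08). Luminal progenitors were 1.19 ± 0.31 above mature luminal cells (adjusted p = 0.0063), a call that ended with the mean of the kept probes (0.36, adjusted p = 0.061). Adamts19, whose substrates are little known, had 9.90, 10.40 and 10.69 in the stroma, 4.64, 4.88, 6.15, 6.04 and 5.59 in MaSC-enriched cells, 4.68, 5.21, 5.27, 4.99 and 4.82 in luminal progenitors and 4.65, 4.93, 4.60, 4.84 and 4.68 in mature luminal cells. It was below background on every mature luminal array, so stroma was at least 36.2-fold higher (adjusted p = 1.5e-13). Adamts16, known from kidney and gonad, had 8.57, 8.23 and 8.97 in the stroma, 4.80, 4.82, 5.63, 6.08 and 4.89 in MaSC-enriched cells, 4.86, 5.60, 5.89, 4.87 and 4.76 in luminal progenitors and 4.96, 4.78, 4.83, 4.84 and 4.72 in mature luminal cells. Stroma stood clear of all epithelial arrays, at least 10.8-fold above mature luminal cells (adjusted p = 4.1e-11), and no epithelial pair was called. A second kept probe of Adamts16 shared no call.

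Adamts18, an orphan member of the family, was highest in the MaSC-enriched subset. Its values were 7.61, 8.54 and 8.03 in the stroma, 11.79, 11.60, 10.68, 11.26 and 11.00 in MaSC-enriched cells, 5.79, 6.23, 8.21, 5.34 and 4.75 in luminal progenitors and 5.74, 5.43, 6.23, 7.07 and 4.86 in mature luminal cells. No array of another subset reached the MaSC-enriched range. Stroma was lower than MaSC-enriched cells by -3.30 ± 0.46 (adjusted p = 1.2e-05), and MaSC-enriched cells were 31.5-fold above luminal progenitors (4.98 ± 0.48, adjusted p = 1.2e-07) and 47.7-fold above mature luminal cells (5.58 ± 0.45, adjusted p = 1.3e-08). Against luminal progenitors the fold was 49.8 without luminal progenitor replicate 3 and 57.8 without pools 3 and 4. Another kept probe of Adamts18 shared all 5 calls. Stroma was also above luminal progenitors (1.68 ± 0.43, adjusted p = 0.0057, or 2.35 without luminal progenitor replicate 3), but not without stromal replicate 2 (1.32, adjusted p = 0.068) or luminal progenitor replicate 1 (1.14, adjusted p = 0.11).

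Adamts7 and Adamts9 had the same order at the top. Adamts7, which cuts Comp, was 7.14 to 8.25 in the stroma, 8.31 to 9.64 in MaSC-enriched cells, 6.0 to 6.69 in luminal progenitors and 6.05 to 7.12 in mature luminal cells, with stroma below MaSC-enriched cells by -1.46 ± 0.24 (adjusted p = 8.6e-05). Adamts9, a versican-cutting enzyme, was 10.73 to 11.09 in the stroma, 12.39 to 13.09 in MaSC-enriched cells, 8.72 to 11.74 in luminal progenitors and 9.97 to 10.49 in mature luminal cells, with stroma below MaSC-enriched cells by -1.74 ± 0.30 (adjusted p = 0.00014). Its call for stroma over luminal progenitors (1.19 ± 0.28) ended without luminal progenitor replicate 1 (0.77, adjusted p = 0.091) and without array quality weights (0.94, adjusted p = 0.14). These 3 genes, Adamts18, Adamts7 and Adamts9, were the members higher in MaSC-enriched cells than in all 3 other subsets, 4.29% of 70 beside 4.01% of all genes.

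Adamts1 and Adamts4, both of which cut the proteoglycans aggrecan and versican, were shared by stroma and MaSC-enriched cells. Adamts1 read 11.96, 11.85 and 11.66 in the stroma, 12.25, 11.97, 11.68, 10.28 and 11.58 in MaSC-enriched cells, 7.69, 7.75, 9.54, 8.97 and 6.30 in luminal progenitors and 7.86, 7.52, 7.33, 7.56 and 6.85 in mature luminal cells. Stroma and MaSC-enriched cells overlapped (0.06 ± 0.38, adjusted p = 0.94), and every array of both lay above every luminal array. MaSC-enriched cells were 12.9-fold above luminal progenitors (3.69 ± 0.40, adjusted p = 6.4e-07, or 23.3-fold without pools 3 and 4) and 19.1-fold above mature luminal cells (4.26 ± 0.38, adjusted p = 4.7e-08). Adamts4 ranged over 10.86 to 11.35 in the stroma, 9.91 to 12.11 in MaSC-enriched cells, 7.54 to 10.14 in luminal progenitors and 7.52 to 8.78 in mature luminal cells, and MaSC-enriched cells exceeded luminal progenitors by 2.58 ± 0.34 (adjusted p = 7.3e-06).

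Smaller Adamts differences complete the family. Adamts15, a versican-cutting enzyme, was highest in the stroma (8.55 to 9.06, against 6.22 to 7.33 in MaSC-enriched, 6.91 to 7.77 in luminal progenitor and 6.03 to 7.81 in mature luminal cells). It was the 1 gene called higher in luminal progenitors than in both other epithelial subsets (2.1% of all genes were), but MaSC-enriched against luminal progenitor (-0.67 ± 0.24, adjusted p = 0.038) lost the call without MaSC-enriched replicate 1 (-0.55) or 2 (-0.45), luminal progenitor replicate 1 (-0.64), 2 (-0.51) or 5 (-0.65), or any of mature luminal replicates 1, 2 and 3 (each -0.67). Adamts10, which binds fibrillin, was 7.75 to 8.23 in the stroma, 5.57 to 7.63 in MaSC-enriched cells, 4.78 to 6.03 in luminal progenitors and 4.65 to 5.41 in mature luminal cells. Its call for MaSC-enriched over luminal progenitor cells (0.71 ± 0.23, adjusted p = 0.027) ended without MaSC-enriched replicate 3 (0.58) or 4 (0.54), or luminal progenitor replicate 5 (0.59), or pools 3 and 4 (0.34), and that for luminal progenitor over mature luminal cells (0.73 ± 0.21, adjusted p = 0.013) without luminal progenitor replicate 1 (0.64) or 2 (0.63). The mean of the kept probes ended 4 of its 6 calls, with 0.46 for stroma minus MaSC-enriched and 0.49, 0.23 and 0.26 for MaSC-enriched minus mature luminal, MaSC-enriched minus luminal progenitor and luminal progenitor minus mature luminal. Adamts14, which trims procollagen, was above background on stromal replicates 2 and 3 and on no other array. It was 5.09 to 6.14 in the stroma and at most 5.04 in the epithelial subsets, and having passed the filter through the stroma alone it is given here as values without a test, though the counts of calls include it. Adamts8 was called only in MaSC-enriched against mature luminal cells (0.74 ± 0.26, adjusted p = 0.038), a call lost without MaSC-enriched replicate 1 (0.52), 2 (0.63) or 5 (0.67), luminal progenitor replicate 1 or 5 (each 0.74), or mature luminal replicate 2 (0.71), 3 (0.76) or 5 (0.67). Adamts13, Adamts17, Adamts20 and Adamts6 had no call, and Adamts3 was never above background.

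All 4 Adamtsl genes were higher in the stroma than in every epithelial subset, where 9.92% of all genes were. Adamtsl1, also named punctin, read 9.45, 9.72 and 9.81 in the stroma, 5.15, 4.99, 6.42, 6.53 and 4.79 in MaSC-enriched cells, 4.63, 4.87, 5.03, 7.50 and 4.63 in luminal progenitors and 4.60, 4.56, 4.71, 4.73 and 4.57 in mature luminal cells. No mature luminal array was above background, and stroma was at least 22.7-fold higher there (adjusted p = 1.9e-12). MaSC-enriched exceeded mature luminal cells by at least 1.34-fold, a bound under the fold-change of 1.5. The call came from the fitted log2 difference of 0.83 (adjusted p = 0.012), which uses the values below background. It was lost without pools 3 and 4 (0.45) and without array quality weights (0.94, adjusted p = 0.084). Adamtsl2, a partner of fibrillin, had 6.13, 5.27 and 5.86 in the stroma, 4.85, 4.88, 5.18, 5.41 and 5.10 in MaSC-enriched cells, 4.86, 4.74, 4.68, 6.16 and 5.00 in luminal progenitors and 4.92, 4.76, 4.78, 4.84 and 5.00 in mature luminal cells. It was near background, the stromal arrays overlapped MaSC-enriched and luminal progenitor ones, and the call against MaSC-enriched cells (0.71 ± 0.18, adjusted p = 0.0054) fell under the fold-change of 1.5 without stromal replicate 1 (0.58) or MaSC-enriched replicate 1 (0.57).

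Adamtsl3 had 9.88, 9.75 and 9.44 in the stroma, 6.75, 5.83, 5.89, 6.85 and 7.35 in MaSC-enriched cells, 5.15, 5.47, 5.71, 5.16 and 5.29 in luminal progenitors and 5.08, 5.08, 5.17, 4.84 and 5.24 in mature luminal cells. All MaSC-enriched arrays lay between the stromal and the luminal ones, with stroma 3.32 ± 0.21 above them (adjusted p = 3.7e-10) and mature luminal cells below them (MaSC-enriched minus mature luminal 1.34 ± 0.21, adjusted p = 4.7e-05, but 0.46 with the mean of the kept probes). Adamtsl4, which promotes fibrillin fibers, had 12.41, 12.29 and 12.19 in the stroma, 9.75, 8.75, 8.91, 9.58 and 9.74 in MaSC-enriched cells, 8.77, 8.58, 8.36, 9.36 and 8.87 in luminal progenitors and 8.46, 7.77, 7.67, 8.36 and 8.60 in mature luminal cells. Stroma exceeded MaSC-enriched cells by 3.07 ± 0.18 (adjusted p = 1.1e-10). MaSC-enriched exceeded luminal progenitor cells by 0.63 ± 0.19 (adjusted p = 0.014), a call that ended without MaSC-enriched replicate 1 (0.53), MaSC-enriched replicate 5 (0.55) or luminal progenitor replicate 3 (0.58).

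Among the epithelial subsets alone, the group leaned toward MaSC-enriched cells. Against luminal progenitors, 15 of 70 were higher in MaSC-enriched cells (background 11.3%) and 2, Adamts15 and Mmp16, were lower (background 10.9%). Against mature luminal cells, 20 were higher (background 13.7%) and 3, Adam10, Adam8 and Mmp16, were lower (background 13.8%). MaSC-enriched cells were higher than both luminal subsets for 13 of 70 genes (18.6%, background 9.66%): Adam12, Adamts1, Adamts10, Adamts18, Adamts4, Adamts7, Adamts9, Adamtsl3, Adamtsl4, Mmp17, Mmp2, Mmp23 and Timp3. Of luminal progenitors against mature luminal cells, 7 were higher (background 6.41%) and 2, Mmp14 and Mmp28, were lower (background 4.66%). Endothelial and pericyte markers were also higher in MaSC-enriched than in mature luminal cells, for 5 of 7 and 5 of 6 genes. The remaining 1 pericyte marker was called lower in MaSC-enriched than in mature luminal cells. Against luminal progenitors, 0 of 7 endothelial markers passed the limma test (4 at an unadjusted p below 0.05), with a median difference of 1.56. The endothelial mean was 8.48 to 9.44 on the stromal, 7.88 to 11.65 on the MaSC-enriched, 6.79 to 10.79 on the luminal progenitor and 7.86 to 8.66 on the mature luminal arrays, and the part of these cells in the counts was not tested. The median log2 difference of the 70 genes was 0.13, 0.13 and 0.04 in these 3 comparisons, beside -0.02, -0.04 and -0.03 over all genes.

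Mature luminal cells had the lowest level of 6 genes against all 3 other subsets, Adam23, Adamts10, Adamts12, Mmp2, Mmp23 and Mmp3 (8.57%, background 2.67%), and 0 of 70 were highest there by the limma test, also at an unadjusted p below 0.05 (background 2.47%), although Mmp14 and Mmp28 were called above luminal progenitors. Of the 7 fibroblast markers, 6 were higher in MaSC-enriched than in mature luminal cells and 6 in luminal progenitor than in mature luminal cells, while 0 were called between MaSC-enriched and luminal progenitor cells by the limma test, also at an unadjusted p below 0.05. The median log2 difference of the 7 markers was 4.27 for stroma minus MaSC-enriched and 1.78 for luminal progenitor minus mature luminal. In the same 2 comparisons the differences were 4.48 and 2.26 for Adam23, 5.09 and 1.79 for Mmp3, 3.64 and 1.19 for Adamts12, 3.22 and 1.05 for Mmp23, 1.71 and 1.89 for Mmp2 and 1.31 and 0.73 for Adamts10. Between MaSC-enriched and luminal progenitor cells, where the median difference of the 7 markers was 0.12, Mmp2 (2.46), Mmp23 (2.27) and Adamts10 (0.71) were called higher in MaSC-enriched cells, and Adam23, Mmp3 and Adamts12 were not called. In every subset 0 of the 7 markers were below background on all arrays, and the lowest mean of the 7, on mature luminal replicate 5, was 7.19. The highest mature luminal mean of the 7, on replicate 4, was 9.30. That array was also the highest of its group for Adam23, Adamts12, Mmp2, Mmp23 and Mmp3, though not for Adamts10. The part of fibroblast RNA in the epithelial levels of these 6 genes was not tested. Timp3 and Adamts1 were higher in MaSC-enriched than in luminal progenitor cells, a comparison in which 0 of the 7 fibroblast markers were called but 5 of 6 pericyte markers were higher. The pericyte mean was 8.47 to 8.76 on the stromal, 7.31 to 9.16 on the MaSC-enriched, 6.37 to 7.87 on the luminal progenitor and 6.72 to 7.19 on the mature luminal arrays, with 0 of the 6 below background on all arrays of any subset, and its part in these results was not tested. Without pools 3 and 4, MaSC-enriched cells were above mature luminal cells for Mmp3 (1.44, adjusted p = 0.0018), Adam23 (2.51, adjusted p = 6.7e-06) and Adamts12 (1.58, adjusted p = 0.00086). In pools 1, 2 and 5 the fibroblast mean was 9.84, 9.58 and 10.23 on the MaSC-enriched arrays. On the mature luminal arrays of these pools it was 8.80, 8.86 and 7.19. Leaving out pools 3 and 4 thus kept a difference in the fibroblast markers, whose part here was not tested.

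**Figure D5:**
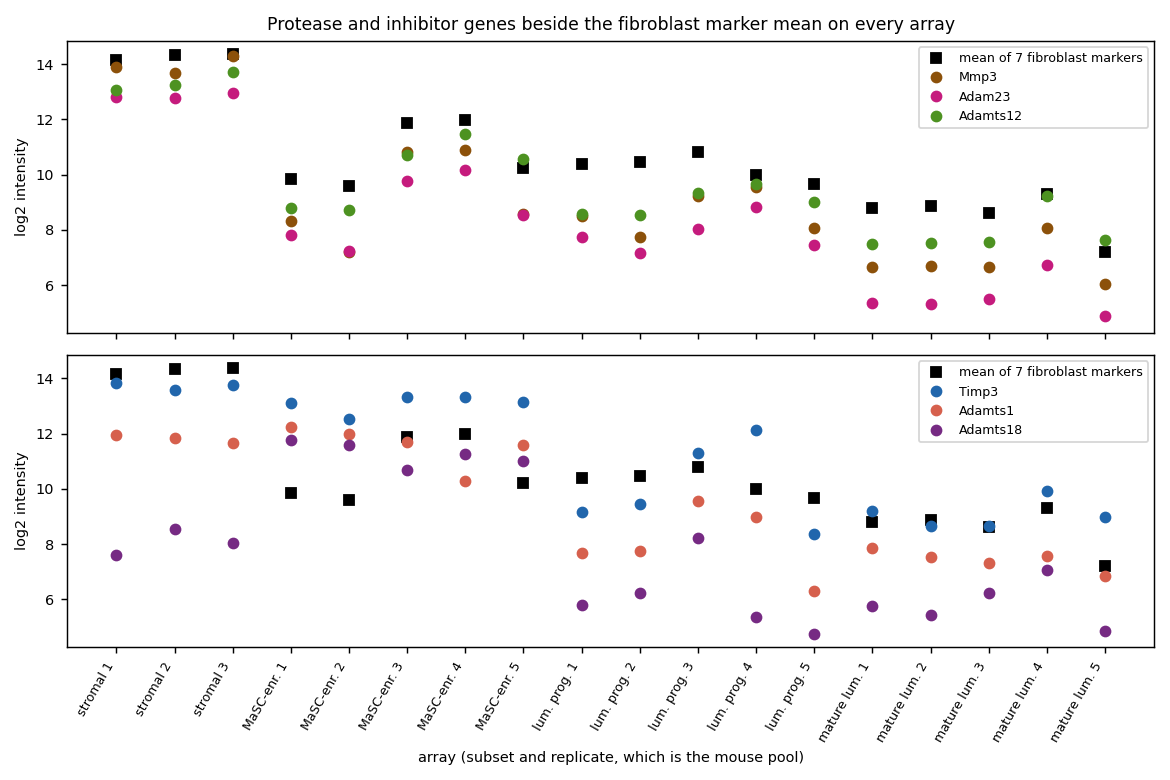
Log2 intensity (vertical axis) on each of the 18 arrays (horizontal axis, by subset and mouse pool) for the mean of 7 fibroblast markers (black squares) with Mmp3, Adam23 and Adamts12 (upper panel) and with Timp3, Adamts1 and Adamts18 (lower panel). In the upper panel MaSC-enriched arrays 3 and 4 are high for the marker mean (11.88 and 11.99) and for Mmp3 (10.84 and 10.91), and in the lower panel Timp3 lies between 12.53 and 13.33 on all MaSC-enriched arrays.

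Genes that act with these enzymes were read from 5 lists. Of 7 tested genes of plasminogen activation, whose product plasmin activates pro-Mmps, 2 were higher and 0 lower in stroma than in MaSC-enriched cells (limma test; 3 and 0 at an unadjusted p below 0.05), where 14.3% and 16.1% of all genes were, with a median log2 difference of 0.31 beside -0.03 over all genes. Plat, tissue plasminogen activator, averaged 13.69 ± 0.13 in the stroma (SD, n = 3), 11.14 ± 0.54 in MaSC-enriched cells, 8.77 ± 0.42 in luminal progenitors and 7.91 ± 0.30 in mature luminal cells (SD, n = 5 each). Plau, urokinase, had the same order, with 12.75 ± 0.11, 10.62 ± 0.41, 7.92 ± 0.45 and 7.27 ± 0.75, and all 6 comparisons were called for both genes. Serpinb2, an inhibitor of Plau, was called higher only in stroma than in luminal progenitors (0.83 ± 0.25, adjusted p = 0.017).

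Of 19 cell-surface regulators, 3 were higher and 10 lower in stroma than in mature luminal cells (median -0.63 beside -0.06 over all genes, of which 16.5% were higher and 21.7% lower). Against MaSC-enriched cells 2 were higher and 2 lower, with a median of -0.10, where 14.3% of all genes were higher and 16.1% lower. Reck, a membrane-anchored inhibitor of Mmps, was higher in stroma than in MaSC-enriched cells (2.69 ± 0.19, adjusted p = 1.4e-09) and in MaSC-enriched than in luminal progenitor cells (1.54 ± 0.20, adjusted p = 4.6e-06). Pcsk6, a proprotein convertase, was 3.96 ± 0.25 higher in stroma than in mature luminal cells (adjusted p = 3.5e-10). Tspan33, a tetraspanin that escorts Adam10, was lower in stroma than in luminal progenitors by -4.20 ± 0.34 (adjusted p = 1.1e-08). Of 11 tested matrix substrates of Adamts enzymes, 8 were higher and 0 lower in stroma than in mature luminal cells by the limma test (median 5.30). At an unadjusted p below 0.05 these counts were 8 and 1, and 16.5% of all genes were called higher and 21.7% lower. The largest differences were those of Fn1 (fibronectin, 7.48 ± 0.39, adjusted p = 3e-11), Col1a1 (7.36 ± 0.45, adjusted p = 2.6e-10) and Col1a2 (6.78 ± 0.23, adjusted p = 1.4e-13), the last 2 being the chains of type I collagen. Col1a1 and Col3a1 of this list are also fibroblast markers and Vwf is also an endothelial marker, so the list partly repeats the marker check.

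Of 18 tested substrates that Adams shed, 2 were higher and 6 lower in stroma than in MaSC-enriched cells (median -0.16), where 14.3% of all genes were higher and 16.1% lower. Against mature luminal cells 2 were higher and 6 lower, with a median of 0.08, where 16.5% of all genes were higher and 21.7% lower. Nrg1, a ligand of ErbB receptors, was lower in stroma than in MaSC-enriched cells by -4.50 ± 0.26 (adjusted p = 1.3e-10) and 4.31 ± 0.27 higher in MaSC-enriched than in luminal progenitor cells (adjusted p = 4.5e-10). Dll1, a Notch ligand, followed Nrg1 (-4.30 ± 0.35 and 4.18 ± 0.37), and Epgn, epigen, was lower in stroma than in mature luminal cells by -4.31 ± 0.32 (adjusted p = 3.6e-09). Of 16 other matrix proteases tested, 8 were higher and 3 lower in stroma than in mature luminal cells (median 0.63), beside the same 16.5% and 21.7% of all genes. Ctsk, the collagen-cutting cathepsin K (6.79 ± 0.31, adjusted p = 4.5e-12), Htra1 (6.75 ± 0.21, adjusted p = 4.8e-14) and Dpp4 (6.63 ± 0.31, adjusted p = 6.1e-12) had the largest differences of that list.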

How the data were processed

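RNA of 18 sorted samples was measured, 1 array each. The authors summarized the arrays with BeadStudio, corrected background with normexp and normalized by quantiles with control probes in limma, and deposited log2 intensities, which were used as they are. A second table, of unnormalized intensities, holds 36 per-sample columns headed by running numbers that could not be tied to samples, and was not used.

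The genes and lists were chosen with earlier results of these data known. Each array's background level came from 1504 probes of olfactory and vomeronasal receptors, as their median with a margin added (median absolute deviation multiplied by the normal quantile that leaves 1% above it), and was 5.10 to 5.44. A probe exceeding the level on 1 array or more was kept, which left 35590 of 45281 (78.6%), 662 receptor probes among them. GEO's platform table gave 34885 probes 1 symbol, 18 several and 10378 none, and all 78 genes matched RefSeq by gene ID. A gene is its brightest kept probe. Levels are not compared between probes.

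All kept probes and 18 arrays were fitted in limma 3.58.1 (statmod 1.5.0, R 4.3.3) with subset means, array quality weights (0.17 to 2.88), the mouse pool as random block (correlation 0.26) and empirical Bayes moderation. Benjamini-Hochberg adjustment ran over all probes and 6 comparisons together (threshold 0.05, fold-change 1.5). Samples of 1 pool come from the same mice: their residuals correlated with a median of 0.41 over 24 pairs, against -0.03 over 96 pairs of other pools. Errors of differences are standard errors. Where a subset was below background on all arrays, a fold is a bound against its background level. An array has no read depth, so the number of arrays limits precision. The procedure was also run on simulated data with equal array quality, no batch split and shifts in the MaSC-enriched subset only. That run cannot speak to uneven arrays, batches or mixed cells. Values on every array are given for each Timp, Mmp2, Mmp14, Adam10, Adam17 and, per role, up to 5 genes with the largest called difference; members of small counts were named besides, and of each partner list the up to 3 genes with the largest called difference. Alternatives were other filters, weights, blocks, batches, adjustments, scaling, probe summaries and leaving out each array, and, chosen after seeing the data, leaving out pools 3 and 4.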

Additional observations from a re-analysis of the deposited data

Results flagged for a closer look

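Of 87 groups of 5 arrays examined for the genes given array by array, 6 held 1 array far from the other 4 (gap over range above Dixon's critical value of 0.71), where chance flags about 5%. Luminal progenitor replicate 4, which had the lowest array weight (0.17), accounted for 3 of them: Adamtsl1 at 7.50 (7.498, others 4.63 to 5.03), Adamtsl2 at 6.16 (others 4.68 to 5.00) and Adam17 at 10.74 (others 9.80 to 10.04). The others were Timp3 on MaSC-enriched replicate 2, at 12.53 (others 13.12 to 13.33), Mmp16 on MaSC-enriched replicate 3, at 7.02 (7.016, others 4.85 to 5.18), and Adamts12 on mature luminal replicate 4, at 9.22 (9.216, others 7.49 to 7.65). Mature luminal replicate 4 also had the highest fibroblast marker mean of its group (9.30) and the lowest mature luminal marker mean (10.38).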

How the results depend on the processing

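The counts of called genes stayed within 1.5 times under all alternatives but 1, hybridization batch 2 alone, where 1 gene was called in MaSC-enriched against luminal progenitor cells (17 with all arrays), 3 in MaSC-enriched against mature luminal cells (23) and 0 in luminal progenitor against mature luminal cells (9); that fit has 6 arrays, and its count of 0 by limma was 4 at an unadjusted p below 0.05. Leaving out 1 array gave 28 to 31 calls for stroma against MaSC-enriched (28 with all), 31 to 34 against luminal progenitor (33) and 31 to 32 against mature luminal cells (32), and 14 to 19, 21 to 25 and 9 to 11 for the 3 epithelial comparisons. Of 142 calls of single genes, 81 held under every alternative that could test them. Hybridization batch 2 alone could test only the 49 calls between epithelial subsets, and it kept 4 and lost 45 of them. Most of the 81 are therefore calls of the stroma, which that alternative could not test. The mean of the kept probes lost 13 of the 142 calls and turned the sign of 2 more, both of Adam15. These went to -0.26 for stroma minus mature luminal (1.06 by the brightest probe) and to -0.12 for MaSC-enriched minus luminal progenitor (0.73). Without array quality weights 13 of the 142 calls were lost, among them Adam8 in stroma against mature luminal cells and Adamts9 in stroma against luminal progenitors. With no replicate block, that is without the pool, 9 of 142 calls were lost and MaSC-enriched against luminal progenitor gave 13 calls; the pool as fixed block lost 1 call, Mmp19 in stroma against mature luminal cells. Shifting arrays to a common median tested nothing, since the medians of the kept probes already lay between 5.959 and 5.966. The planned normalization from unnormalized intensities was not run, since its columns were not tied to samples. Stroma was measured in batch 1 only, and probes near background have little room to show a lower level.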
